A study of Homo sapiens with 32 samples.

Results

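The Mediator kinase module is the dissociable part of the Mediator complex that carries a cyclin-dependent kinase, and 7 genes encode its subunits: the kinases *CDK8* and *CDK19*, cyclin C (*CCNC*), *MED12* and its paralog *MED12L*, and *MED13* and its paralog *MED13L*. The entries of the screen table whose Ensembl identifier maps to one of these symbols gave 7 of 18638 genes, with 4 single guide RNAs (sgRNAs) each, or 28 of 74987 sgRNAs. Members were taken by symbol and no measured value entered the rule, but the list was chosen with earlier results of these data known. The screen was run in RKO cells, an established colorectal cancer line, whose genotype is given as wild type, into which transgenes for Cas9 and KinprolaPKA had been integrated by lentivirus. KinprolaPKA is a split-HaloTag recorder that takes up the fluorescent substrate CPY-CA when protein kinase A (PKA) phosphorylates it, and its EGFP gives the amount of recorder in the cell. The sorted cells all received the same sgRNA library, puromycin selection and CPY-CA labeling, with no drug to raise or lower PKA activity. They were sorted by CPY-CA/EGFP into low (around 25% of cells), medium (around 50%, called basal in the labels) and high (around 25%) populations. Control cells taken at the start of the experiment carry no CPY-CA/EGFP class in their labels.

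Mediator links DNA-bound transcription factors to RNA polymerase II. The kinase module binds the rest of Mediator through MED13 or MED13L, and while bound it keeps the polymerase from docking there. Within the module, cyclin C and MED12 activate the kinase, and each paralog is thought to take the place of its partner, so that a module holds either CDK8 or CDK19, either MED12 or MED12L, and either MED13 or MED13L. In colorectal cancer the module is best known for CDK8, which was described as an oncogene in tumors with active beta-catenin.

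In GRCh38, the genes lie on 6 chromosomes. *MED12* (ENSG00000184634) spans 71118543 to 71144103 on the plus strand of chromosome X, and *MED12L* (ENSG00000144893) spans 151085286 to 151437072 on the plus strand of chromosome 3. *MED13* (ENSG00000108510) spans 61942605 to 62065278 on the minus strand of chromosome 17, and *MED13L* (ENSG00000123066) spans 115957905 to 116277693 on the minus strand of chromosome 12. *CDK8* (ENSG00000132964) spans 26254104 to 26420982 on the plus strand of chromosome 13. *CDK19* (ENSG00000155111) and *CCNC* (ENSG00000112237) are both on the minus strand of chromosome 6, at 110609978 to 110815958 and 99542387 to 99568825.

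The screen was performed in 2 independent runs, numbered replicates 2 and 3, and each gave 4 libraries: the low, medium and high populations and a control taken at the start of the experiment (T0). The 8 libraries held 23369720 to 31777138 reads, with a median of 260 to 356 reads per sgRNA, and the lowest count of any member sgRNA was 29 reads. Levels are given as scaled reads, which are reads set to the mean total of the 8 libraries and, for a gene, summed over its 4 sgRNAs. Fold changes are log2 differences between populations within a screen, with 1 read added, and a gene takes the mean of its sgRNAs. They were tested over all genes with limma, and a gene was called at a Benjamini-Hochberg adjusted p under 0.05. limma draws the spread of a gene between the 2 screens towards the spread of all genes. The weight of all genes was 10.24 prior degrees of freedom in high versus low and 23.64 in sorted cells versus T0. SEs and p-values thus rest mostly on this shared spread and little on the gene's own. A positive high versus low value means that cells with sgRNAs against the gene were more frequent in the high population than in the low one. Editing of the member genes was not reported, so knockout here stands for carrying such an sgRNA.

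Knockout of *MED12*, *CCNC* and *MED13* was found more often among highly labeled cells, and knockout of the kinases or of the paralogs *MED12L* and *MED13L* was not called in either direction. In the high versus low comparison, 3 of the 7 members were higher and 0 were lower, against 5.25% of all genes called higher. The median log2 fold change of the 7 members was 0.25, and that of all genes was −0.01. The 3 called members had ranks of 195 (*MED12*), 397 (*CCNC*) and 440 (*MED13*) from the highest fold change of 18638 genes.

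**Figure D1:**
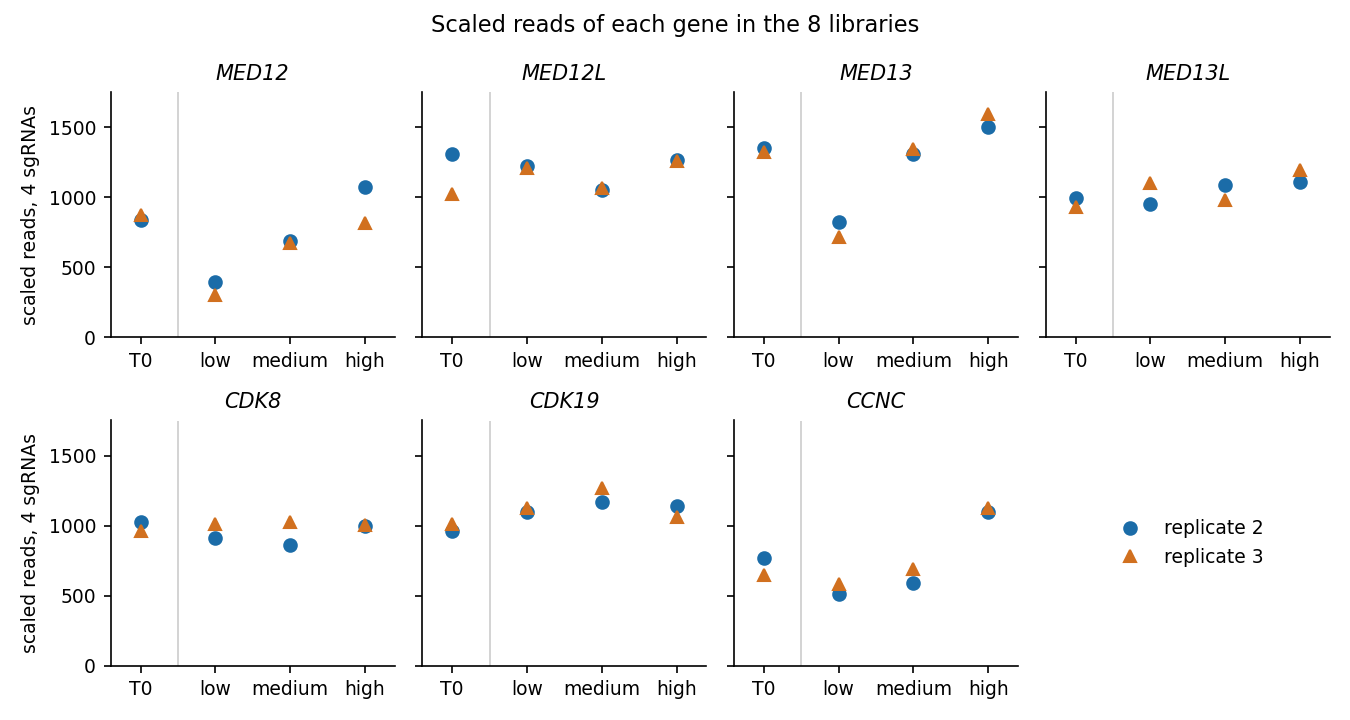
Scaled reads (y axis, summed over 4 sgRNAs) of each gene in T0 and in the low, medium and high populations (x axis), with circles for replicate 2 and triangles for replicate 3, 1 point per library. For *MED12*, *MED13* and *CCNC* both low libraries lie below both high libraries, whereas *CDK8* stays between 861 and 1026 scaled reads in all 8 libraries.

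*MED12*, the subunit that holds cyclin C and the kinase in their active form, showed the largest difference of the 7 genes. In replicate 2 it had 394 scaled reads in the low, 690 in the medium and 1072 in the high population, and in replicate 3 it had 299, 669 and 817. Both screens gave the same order, and neither the low nor the medium libraries overlapped with the next population. The high versus low log2 fold change was 1.44 and 1.53 in the 2 screens, with a mean of 1.49 (SE 0.11, n = 2 screens, limma adjusted p = 2.68e-06), or 2.80-fold. Put together with the share of cells in each gate, 37.7% and 33.3% of *MED12* knockout reads fell in the high gate and 13.9% and 12.2% in the low gate, whereas the median gene had 24.8% and 24.9% in the high gate.

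The 4 *MED12* sgRNAs did not behave alike. sgRNA 1 had 89 and 52 scaled reads in the low populations and 484 and 405 in the high populations of replicates 2 and 3, a log2 fold change of 2.67 (edgeR quasi-likelihood test over all sgRNAs, adjusted p = 5.26e-26). sgRNA 3 rose by 1.74 (edgeR adjusted p = 2.26e-05) and sgRNA 4 by 1.42 (edgeR adjusted p = 0.00566). sgRNA 2 had 177 and 169 scaled reads in the low populations and 242 and 140 in the high populations. Its low and high libraries overlapped, and its log2 fold change of 0.13 was not called (edgeR adjusted p = 0.914). Because a gene value is the mean over sgRNAs, the *MED12* value of 1.49 includes this sgRNA.

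Over all members, 9 of 28 sgRNAs were called higher in high versus low and 0 lower, against 2.96% of all sgRNAs tested that were called higher. The 9 were 3 each of *MED12*, *MED13* and *CCNC*, and no sgRNA of the other 4 genes was called. As a background, 278 sgRNAs with no human target (nontargeting, LacZ and luciferase) had a mean high versus low log2 fold change of −0.11 (SD 0.31), and the central 95% of them lay between −0.69 and 0.37.

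**Figure D2:**
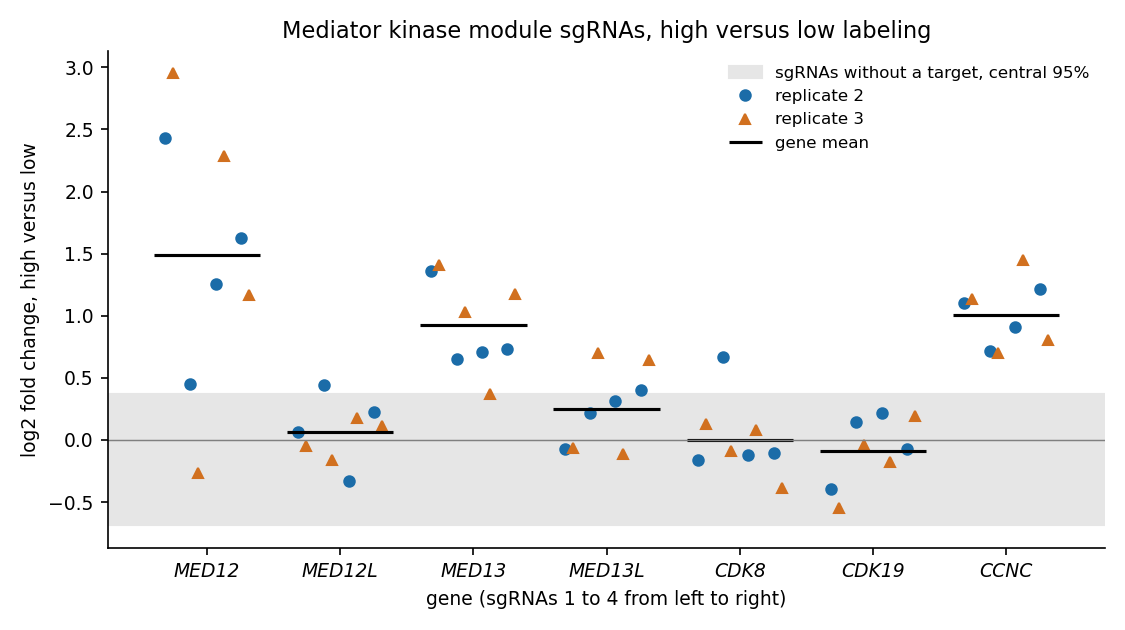
High versus low log2 fold change (y axis) of each of the 4 sgRNAs of the 7 genes (x axis), with circles for replicate 2, triangles for replicate 3 and a black line for the gene mean. The grey band spans the central 95% of 278 sgRNAs without a target, from −0.69 to 0.37. The points of *CCNC*, of *MED13* and of *MED12* sgRNAs 1, 3 and 4 lie above it in both screens, *MED13* sgRNA 3 only just in replicate 3.

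*CCNC*, the cyclin partner shared by CDK8 and CDK19, came next. It had 512 scaled reads in the low, 592 in the medium and 1094 in the high population of replicate 2, and 583, 693 and 1128 in replicate 3. The high libraries stood well above all others, and within each screen the low and medium libraries were close to each other. The high versus low log2 fold change was 0.99 and 1.02, with a mean of 1.01 (SE 0.11, limma adjusted p = 5.80e-05), or 2.01-fold. Its sgRNAs were the most even of the called genes: the 8 values of 4 sgRNAs in 2 screens ran from 0.70 to 1.45. sgRNAs 1, 3 and 4 were called by edgeR, with log2 fold changes of 1.13, 1.20 and 1.02, and sgRNA 2, at 0.72, was not (adjusted p = 0.257).

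*MED13*, which connects the module to the rest of Mediator, had the third value. It had 822 scaled reads in the low, 1309 in the medium and 1498 in the high population of replicate 2, and 717, 1344 and 1590 in replicate 3. Both low libraries were far below the other 6, and T0 (1352 and 1323) was near the medium population. The high versus low log2 fold change was 0.86 and 1.00, with a mean of 0.93 (SE 0.11, limma adjusted p = 0.000127), or 1.90-fold. All 4 sgRNAs were above 0 in both screens. sgRNAs 1, 2 and 4 were called by edgeR at 1.39, 0.84 and 0.95, and sgRNA 3, the sgRNA of this gene with the fewest reads, was not called at 0.55 (adjusted p = 0.665).

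The kinases themselves showed no such difference. *CDK8* had 910 and 1013 scaled reads in the low populations of replicates 2 and 3 and 998 and 1007 in the high populations. Its log2 fold change was 0.07 and −0.07, with a mean of 0.00 and a 95% interval of −0.24 to 0.24 (limma adjusted p = 0.994). *CDK19* had 1100 and 1127 scaled reads in the low populations and 1137 and 1059 in the high populations, a mean log2 fold change of −0.09 with an interval of −0.32 to 0.15 (limma adjusted p = 0.783). For both kinases the low and high libraries overlapped, and the intervals leave out a fold change as large as that of *MED13*. The edgeR log2 fold changes of the 8 sgRNAs against the kinases ran from −0.47 to 0.29, with no adjusted p below 0.517. Transduction was set so that most cells received 1 sgRNA, and knockout of both kinases in the same cell was not measured. How far *CDK8* and *CDK19* were edited was not reported, and the values describe cells that carried the sgRNAs.

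The paralogs of *MED12* and *MED13* were also not called. *MED12L* had 1224 and 1210 scaled reads in the low and 1266 and 1259 in the high populations, a mean log2 fold change of 0.06 with an interval of −0.18 to 0.30 (limma adjusted p = 0.851). *MED13L* had 950 and 1100 in the low and 1106 and 1192 in the high populations. Its high libraries were only slightly above its low libraries, at 0.22 and 0.29 in the 2 screens, with a mean of 0.25 and an interval of 0.02 to 0.49 that did not pass the adjustment over all genes (limma adjusted p = 0.246). Its sgRNA 4 had values of 0.40 and 0.64 and sgRNA 1 of −0.07 and −0.06, and none of the 4 was called by edgeR.

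Set against each other, *MED12* exceeded *MED12L* by 1.43 on the log2 scale (95% interval 1.09 to 1.76) and *MED13* exceeded *MED13L* by 0.68 (0.34 to 1.01), whereas *CDK8* and *CDK19* differed by 0.09 (−0.25 to 0.43). These intervals come from the SEs of both genes in the limma fit, and no p was computed for them. Other pairs were compared after their values had been seen. *MED12* was above *CCNC* by 0.48 (0.14 to 0.82) and above *MED13* by 0.56 (0.22 to 0.90), and *CCNC* and *MED13* could not be told apart (0.08, interval −0.26 to 0.41). *CCNC* was above *CDK8* by 1.00 (0.67 to 1.34) and above *CDK19* by 1.09 (0.75 to 1.43), its kinase partners.

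In the comparisons with the medium population, *MED12* and *MED13* were called on the low side and *CCNC* on the high side. They share the medium libraries with each other and the low or high libraries with the comparison above, so the values of a gene are not independent of each other. In the low versus medium comparison, *MED12* was lower by a log2 fold change of −1.09 (SE 0.12, limma adjusted p = 0.00216) and *MED13* by −0.70 (SE 0.11, limma adjusted p = 0.00928), so that 2 of the 7 members were lower, against 1.54% of all genes. *CCNC*, at −0.31 (limma adjusted p = 0.272), was not called. In the high versus medium comparison, *CCNC* was higher by 0.70 (SE 0.10, limma adjusted p = 0.0323), 1 of the 7 members, against 1.7% of all genes. *MED12*, at 0.40 (limma adjusted p = 0.287), and *MED13*, at 0.23 (limma adjusted p = 0.513), were not called.

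Libraries were left out in a limma fit on single libraries blocked by screen, which made the same 3 calls when none was left out. Without either low library in turn, *MED12* and *MED13* had limma adjusted p-values of 0.0536 to 0.174 for low versus medium, and neither was called. Without the high library of replicate 2, *CCNC* had a limma adjusted p of 0.0508 for high versus medium.

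Of the 28 sgRNAs, 4 were lower in the low than in the medium population (edgeR), against 0.749% of all sgRNAs, and these were *MED12* sgRNAs 1 and 3 and *MED13* sgRNAs 1 and 4. Only *CCNC* sgRNA 4 was higher in the high than in the medium population, at 1.04 (edgeR adjusted p = 9.78e-06), against 1.15% of all sgRNAs. This sgRNA had 262 and 270 scaled reads in the low, 280 and 247 in the medium and 610 and 473 in the high populations. Its low and medium libraries overlapped and both high libraries stood apart, whereas *MED12* sgRNA 1 fell from 249 and 306 in the medium to 89 and 52 in the low populations. The other *CCNC* sgRNAs were not called on either side. sgRNA 2 was nearer to sgRNA 4, with edgeR log2 fold changes of −0.09 for low versus medium and 0.63 for high versus medium, and sgRNAs 1 (−0.52 and 0.61) and 3 (−0.65 and 0.55) were about as far from medium on either side.

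The asymmetry about the medium population, computed as low plus high minus 2 times medium on the log2 scale, puts both sides into a single value. It was −0.69 for *MED12*, −0.48 for *MED13* and 0.39 for *CCNC*, and none of the 7 members was called by limma, against 0.0376% of all genes. The smallest asymmetry called for any gene was 2.28, far above the size of any member value. At an unadjusted p under 0.05, 2 of the 7, *MED12* and *MED13*, were found in the limma fit (adjusted p-values of 0.524 and 0.636), against 6.86% of all genes. Between genes, *CCNC* exceeded *MED12* by 1.08 (95% interval 0.42 to 1.73) and *MED13* by 0.87 (0.28 to 1.46), and *MED13* and *MED12* differed by 0.21 (−0.44 to 0.86). These pairs were chosen after their values had been seen. The difference of *CCNC* from the other 2 had the same sign in both screens, at 0.85 and 1.30 against *MED12* and 0.88 and 0.85 against *MED13*.

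**Figure D3:**
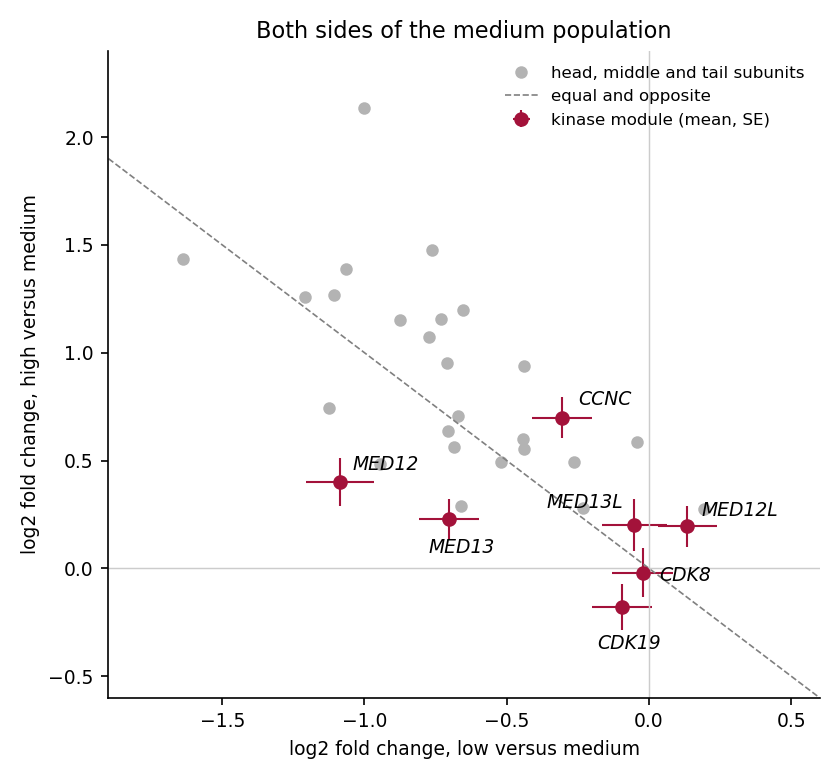
Log2 fold change of low versus medium (x axis) against high versus medium (y axis) for the 7 kinase module genes (red, mean of 2 screens with SE) and the 26 head, middle and tail subunits (grey, means). On the dashed line both sides move equally far from medium; *MED12* (−1.09, 0.40) and *MED13* (−0.70, 0.23) lie below it and *CCNC* (−0.31, 0.70) above it.

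Read numbers at T0 show how far the knockouts were kept or lost before sorting. The reads of the 3 populations, weighted 0.25, 0.5 and 0.25 by their gates, were set against T0. *MED12* was lower, with a mean log2 fold change of −0.36 (limma adjusted p = 0.0268), 1 of the 7 members, against 8.35% of all genes. The 2 screens were unequal, at −0.12 and −0.59, and the T0 level itself was 839 and 872 scaled reads. In the limma fit on the libraries, which averages log2 values, it was −0.49 (adjusted p = 0.0484). There the value was −0.77 without the T0 library of replicate 2 (limma adjusted p = 0.0109) and −0.21 without that of replicate 3 (limma adjusted p = 0.515), and *MED12* was called without the low or the T0 library of replicate 2 but not without any of the other 6. Its sgRNAs 1 and 3 were lower by −0.62 and −1.11 (edgeR adjusted p = 0.00823 and 0.000138). Thus 2 of the 28 sgRNAs were called lower, against 6.28% of all sgRNAs, which is near the share of the members. Of 275 sgRNAs without a target tested by edgeR in this comparison, 24 were called in either direction. sgRNA 2, which did not differ between high and low, was at 0.04 (edgeR adjusted p = 0.962). sgRNA 4 was at −0.33 and not called (edgeR adjusted p = 0.645), and it went opposite ways in the screens, at 0.52 in replicate 2 and −0.88 in replicate 3.

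*CDK19* was higher after growth, with 960 and 1009 scaled reads at T0, all below the 1059 to 1265 of the 6 sorted libraries. Its log2 fold change was 0.29 (limma adjusted p = 0.0479), 1 of the 7 members, against 2.54% of all genes, and all 4 sgRNAs were above 0 in both screens. The call was not made in the limma fit on the libraries, where the value was 0.28 with all 8 (adjusted p = 0.076). The 278 sgRNAs without a target had a mean of 0.24 in the same comparison. Centred on them, *CDK19* was at 0.05 (limma adjusted p = 0.636), and *MED12* (−0.59, limma adjusted p = 0.00304), *MED13* (−0.31, limma adjusted p = 0.0262) and *CDK8* (−0.27, limma adjusted p = 0.0465) were called lower, 3 of the 7 members, against 33.4% of all genes, which is near the share of the members. Without this centring, *CCNC*, at 0.14, *MED12L*, at 0.00, and *MED13L*, at 0.23 (limma adjusted p = 0.159), were not called. With it, they were at −0.10, −0.24 and −0.01 and were not called either.

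Values for the rest of Mediator, whose head and middle bind the polymerase and whose tail receives many of the transcription factors, stand beside those of the kinase module. In the high versus low comparison, limma called 25 of the 26 head, middle and tail subunits higher, 12 of 12 in the head (median 1.75), 8 of 9 in the middle with MED14 (median 1.85) and 5 of 5 in the tail (median 0.95). The exception was *MED1*, at 0.08. The largest values were those of *MED21* in the middle (3.14) and *MED8* in the head (3.07). *MED12* thus lay above all 5 tail subunits, and *CCNC* and *MED13* lay within the range of the tail, 0.51 to 1.01.

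In the comparison with T0, 18 of the 26 head, middle and tail subunits were lower by limma, with a median of −0.47, and the 7 members of the kinase module had a median of 0.00. The medium comparisons called 16 of the 26 lower in low and 13 of the 26 higher in high, and no subunit of the 26 was called for asymmetry. These counts describe the lists and are no test of a difference between the kinase module and the rest of Mediator.

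**Figure D4:**
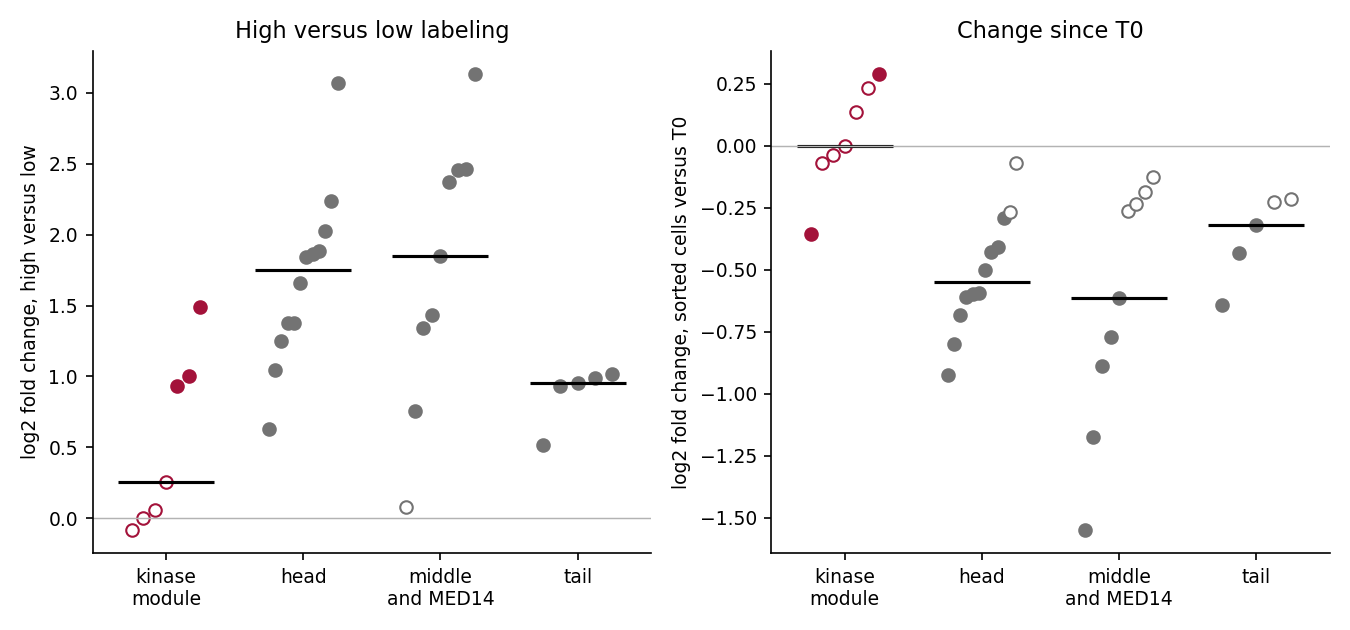
Log2 fold changes (y axes) of high versus low (left) and of sorted cells versus T0 (right) for the 7 kinase module genes (red) and the head, middle and tail subunits of Mediator (grey), 1 point per gene, filled where limma's adjusted p was under 0.05, with a line at the median. On the left 3 of 7 kinase module genes and 25 of 26 others are filled above 0; on the right 1 of 7 and 18 of 26 are filled below 0.

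Other cyclin-dependent kinases of transcription and their cyclins went both ways. Of 9 genes, limma called 5 higher in high versus low and 2 lower. *CDK9*, the kinase of P-TEFb that releases paused polymerase, was at 1.54, and *CDK7*, the kinase of TFIIH, was at 1.31, both close to *MED12*. *CCNK*, the cyclin of CDK12 and CDK13, was at −1.94 and *CDK13* at −0.54, whereas *CDK12*, at −0.02, was not called. Unlike *CCNC* and its kinases, *CDK7* and its cyclin *CCNH* (1.08) were both called higher.

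FBXW7 is the substrate receptor of an SCF ubiquitin ligase for which MED13 and MED13L are known substrates. Of its 4 subunits, limma called 3 higher in high versus low: *CUL1* at 2.77, *SKP1* at 1.18 and *FBXW7* at 1.16, and *RBX1*, at 0.38, was not called. The first 2 and *RBX1* also serve other SCF ligases. Of 16 genes of beta-catenin transcription and its control, through which CDK8 is known in colorectal cancer, 0 were called higher and 1 lower, the casein kinase gene *CSNK1A1* at −0.69, with a median of 0.00. *CTNNB1*, which encodes beta-catenin, was at 0.27 (limma adjusted p = 0.217). For scale, *PRKACA*, the catalytic subunit of PKA, was at −1.60 and *GNAS*, the stimulatory G protein, at −1.31, and *PRKAR1A*, a regulatory subunit that holds PKA inactive, was at 1.16. The *MED12* value was thus of about the size of the *PRKACA* value with the sign turned.

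Genes with the most similar profile over the 8 libraries were found by the Euclidean distance between log2 scaled reads centred within each screen. Nearest to *MED12* were *DDX42*, *RSRC2*, *UBE2N*, *EIF1* and *DOT1L*, at distances of 0.28 to 0.48, against a median distance of 1.78 over 18637 genes. *DDX42* encodes an RNA helicase of the spliceosome, *EIF1* an initiation factor of translation and *DOT1L* a histone H3 methyltransferase. *MED13* came 129th, *CCNC* 570th, *CDK8* 6516th, *MED13L* 8651st, *MED12L* 10220th and *CDK19* 14298th in nearness to *MED12*. Nearest to *CCNC* were *PPIL4*, *YAE1*, *DBF4*, *ELOF1* and *UBE3D*, at 0.32 to 0.39, against a median of 1.12, with *MED13* 101st, *MED13L* 517th, *MED12L* 2382nd, *CDK8* 6483rd, *CDK19* 13077th and *MED12* 15053rd. At a distance of 1.27, *MED12* was thus farther from *CCNC* than the median gene and both kinases, although both *MED12* and *CCNC* rose from low to high in both screens. The 2 profiles lay farthest apart in 2 libraries of replicate 3. These were T0, at 0.62 for *MED12* and −0.22 for *CCNC*, and low, at −1.14 and −0.39. Profiles were not scaled for size, so a distance counts how far a gene moved as well as its direction. The profiles of all genes share the 8 libraries and their depths, and these distances are a description without a test.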

How the data were processed

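The authors sequenced the sgRNA cassette from genomic DNA and counted reads per sgRNA with MAGeCK, and the deposited table holds raw counts for 4 sequencing lanes of each library. An aligner and a genome build are not given in the sources used here. Lanes of a library were summed, since a chi-square test gave 1.02 to 1.03 per degree of freedom, near the 1 of sampling noise. The table has 4 further columns that match no sample and were not used. PCR reads were counted without molecular identifiers, so they are not independent molecules, and replicates are the 2 screens.

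Gene fold changes were tested with limma 3.58.1 (lmFit and eBayes, R 4.3.3) as the mean of 2 screens against 0, with Benjamini-Hochberg adjustment over 18659 entries and calls counted over 18638 genes. The study's methods name these steps but not the scaling or the pseudocount of 1 read. Its filter on essential genes was not applied. Single sgRNAs with a mean of at least 10 reads were tested with edgeR 4.0.16 (quasi-likelihood, TMM, screen as a block), with DESeq2 1.42.0 as an alternative. Tests were tried on simulated data. The populations of a screen were sorted from the same pool of cells, so the replicate number pairs libraries by design, and deviations of same-numbered libraries correlated at 0.09 to 0.129. Names and coordinates are from GENCODE 44, which named 18585 of 18638 identifiers.

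All 7 members were described with every sgRNA. From the other gene lists, the 3 largest rises and 3 largest falls in high versus low were named, with the 5 genes nearest to *MED12* and the 5 nearest to *CCNC*, and further list genes were named after their values were seen. The members and lists were chosen with earlier results of these data known. The alternatives were a pseudocount of 5 reads, a minimum of 50 reads or no filter, TMM or DESeq2 scaling, centring on sgRNAs without a target, the median over sgRNAs, limma on libraries with and without the replicate block, a weighted mean of log2 values for T0, and leaving out each library. Python 3.11.15 prepared the counts and drew the figures.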

Additional observations from a re-analysis of the deposited data

How the results depend on the processing

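*MED12*, *CCNC* and *MED13* were called higher in high versus low under every alternative run, leaving out each library included (3 to 3 members called). For low versus medium, 0 to 2 members were called when 1 library was left out, with 0 without low replicate 2 or 3. For high versus medium, 2 were called with the median over sgRNAs and with centring on sgRNAs without a target, which added *MED12*, and 0 to 1 when 1 library was left out, with 0 without high replicate 2. For sorted cells versus T0, 1 was called under TMM scaling, DESeq2 size factors and a weighted mean of log2 values, where *CDK19* was lost, and 0 to 1 when 1 library was left out, where *CDK19* was not called with all 8 libraries either. For asymmetry, no member was called in the settings run, which says nothing of stability, since the smallest value called for any gene was 2.28. Over sgRNAs, leaving out 1 library gave 5 to 7 called against 9 for high versus low (5 without high replicate 2 or low replicate 3), 2 to 4 against 4 for low versus medium (2 without low replicate 3), 0 to 2 against 1 for high versus medium (0 without high replicate 2, 2 without medium replicate 3) and 0 to 2 against 2 for sorted cells versus T0 (0 without T0 replicate 3, 1 without medium or T0 replicate 2). The cause of these changes was not tested.

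The replicate block was also fitted on the libraries. With the replicate block, limma called 3 members in high versus low and 1, *MED12*, against T0. Without the replicate block it called 3 in high versus low, 0 in high versus medium (*CCNC*, adjusted p = 0.088) and 0 against T0.

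Centring on sgRNAs without a target moved the median of all genes by 0.11 in high versus low and by −0.24 against T0, and the genes called higher and lower went from 979 and 508 to 1273 and 281, and from 473 and 1556 to 24 and 6232. With 2 screens, the smallest log2 difference called for any gene was 0.39 in high versus low, 0.48 in low versus medium and 0.61 in high versus medium, so a difference of 0.25, as for *MED13L*, was below what was called.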
